A study of Mus musculus with 16 samples.

Results

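Conventional dendritic cells (cDCs) of the mouse spleen fall into 2 subsets, cDC1s and cDC2s, and the normal difference between them was described here from 5 wild-type (WT) RNA-seq libraries, 2 of cDC1s and 3 of cDC2s, out of 16 libraries in the series. Levels are in TPM, a length-corrected unit in which the transcripts of every library add up to the same total, and all genes with a mean of at least 1 TPM over these 5 libraries were compared, which gave 11467 genes of 17721 listed for the cDCs. The mice were C57BL/6 animals of 6 to 8 weeks that carried floxed alleles of Trim33 (Trim33 fl/fl) without Cre, so the WT cells hold loxP sites in both copies of that gene. Splenic cells were depleted of other lineages and sorted as CD11c+ SiglecH- MHC II+ cells that were CD24+ CD172a- (cDC1s) or CD24- CD172a+ (cDC2s), and each sample was collected from several mice. No library of Trim33-deficient cells, and no library of plasmacytoid DCs (pDCs), entered the comparison.

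Both subsets arise from a common bone marrow progenitor under the growth factor FLT3L and take up, process and present antigen to T cells. The cDC1s depend on the transcription factors IRF8 and BATF3, take up dying cells and are known for presenting their antigens on MHC class I to CD8+ T cells. The cDC2s depend on IRF4 and on Notch2 signals and are known for presenting antigen on MHC class II to CD4+ T cells. Which genes carry this division in the resting spleen is the question that the comparison addresses.

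Estimated depth was even, between 18.2 and 19.4 M reads per library, and 3 reads on a 2000-base transcript were worth 0.151 to 0.172 TPM. Correlation across genes on the log2(TPM + 1) scale was 0.981 to 0.986 within a subset and 0.869 to 0.890 between subsets, genes not being independent replicates, and no pair of libraries held identical values. Some libraries stood apart from their group. WT cDC2 library 1 was high in immediate-early genes, whose summed level was 9638 and 15428 TPM in cDC1s and 31332, 12267 and 15330 TPM in cDC2s. WT cDC2 library 2 was high in erythroid genes, which summed to 3193 and 385 TPM in cDC1s and 1274, 10744 and 2038 TPM in cDC2s. The genes nearest the limit of the rule were Hspa1l and Kcna2, both with a mean of 1.0 TPM, just inside it, and Bbs7 and Rnf144a, both with a mean of 0.998 TPM, just outside it.

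The transcripts of the sorting antigens followed the gates, which is a description and no test, because the cells were chosen on these proteins. Cd24a stood at 486 and 608 TPM in cDC1s against 55.1, 38.1 and 23.4 TPM in cDC2s. Sirpa, which encodes CD172a, stood at 509, 444 and 501 TPM in cDC2s against 3.75 and 7.43 TPM in cDC1s. Siglech was low in all 5 libraries, from 3.21 to 7.11 TPM. Itgax, the gene of CD11c, was at 538 and 476 TPM in cDC1s against 826, 828 and 1108 TPM in cDC2s. The MHC class II genes H2-Aa, H2-Ab1 and H2-Eb1 were among the 10 most abundant transcripts of both subsets. H2-Aa, for example, was at 15275 and 15486 TPM in cDC1s against 17154, 16111 and 14546 TPM in cDC2s. The labels were set beside markers of identity, which were chosen with results of these data known, so this is a description too. All 28 cDC1 markers were tested and their summed level was 11199 and 10828 TPM in cDC1s and 1085, 1007 and 1221 TPM in cDC2s. Of 26 markers of cDC2 identity 24 were tested, and their summed level ran the other way, at 749.9 and 1094 TPM in cDC1s and 7626, 8393 and 7190.3 TPM in cDC2s.

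The subsets differed in a sizeable part of their expressed genes. With limma's adjusted p limited to 0.01 and the change to 0.5 or more on the log2 scale in either direction, 2648 of 11467 genes were called (23.1%), of which 960 were higher in cDC1s (8.37% of the genes tested) and 1688 higher in cDC2s (14.7%). In all 2648 the libraries of the subsets did not overlap, and among all genes tested the share without overlap was 62.4%. The change was at least 2 on the log2 scale in 670 genes, 247 higher in cDC1s and 423 in cDC2s, and at least 3 in 298. In RNA from a sorted population, fewer cells that express a gene and less of its RNA per cell cannot be told apart.

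The split between the directions depended on the scaling. As deposited, the median log2 fold change (cDC1 minus cDC2) over all genes was −0.17, and 36.3% of the calls were higher in cDC1s. Median-of-ratios scaling moved the median to −0.01 and gave 1349 calls higher in cDC1s and 1338 in cDC2s (50.2% higher in cDC1s), and quantile normalization gave 1317 and 1204 (52.2%). FPKM, which scale by mapped fragments in place of transcripts, gave 1105 and 1497 (42.5%). With only the limit on the change taken relative to −0.17, 960 genes were higher in cDC1s and 1602 in cDC2s. The adjusted p of that count still tested against 0, so it is not a rescaling of the data. The 10 most abundant genes took 14.8% to 15.6% of all transcripts in the cDC1 libraries and 11.4% to 12.2% in the cDC2 libraries. The number of calls was 1482 without WT cDC1 library 1, 1538 without WT cDC1 library 2 and 1729 without WT cDC2 library 2. A call is said to have held where it was made under all 4 scalings (TPM as deposited, FPKM, median-of-ratios and quantile) and in each of the 5 fits that left out 1 library, which was so for 1262 genes, 479 higher in cDC1s and 783 in cDC2s.

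**Figure D1:**
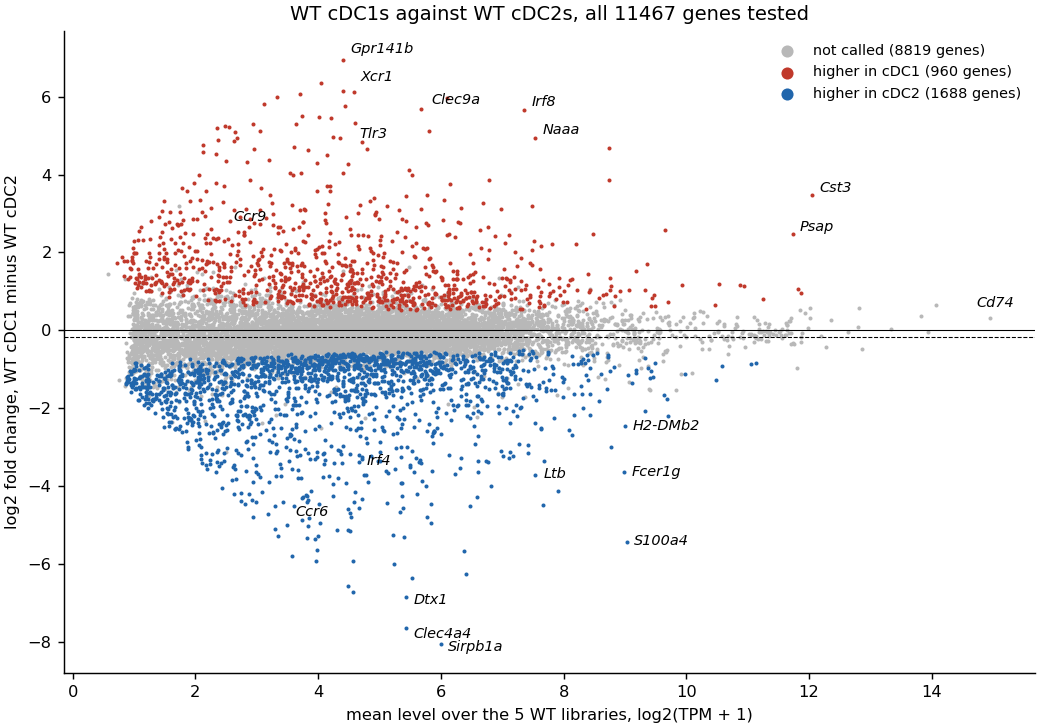
Log2 fold change between WT cDC1s and WT cDC2s (vertical axis, positive where cDC1s are higher) against the mean level over the 5 libraries (horizontal axis, log2(TPM + 1)), with 1 point per tested gene coloured by its call; the dashed line is the median of all genes, −0.17. The 960 genes higher in cDC1s and the 1688 higher in cDC2s lie at all levels of expression, and Cst3 and Psap are abundant genes among the former.

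The 15 genes that led the cDC1 side included the chemokine receptor that defines the subset, receptors for dying cells and its best known transcription factor. Xcr1, the receptor for the chemokine XCL1 (chromosome 9, 123852315 to 123862029, GRCm38.p6), stood at 307 and 303 TPM in cDC1s against 6.6, 2.73 and 1.97 TPM in cDC2s (log2 fold change 6.13, SE 0.362, adjusted p 2.39e-05). Clec9a (chromosome 6, 129408862 to 129424764), a lectin receptor for the actin that dead cells expose, stood at 547 and 536 TPM in cDC1s against 13.7, 9.53 and 6.7 TPM in cDC2s (log2 fold change 5.68, SE 0.251, adjusted p 7.99e-06). Irf8 (chromosome 8, 120736358 to 120756694) had the highest level of the 15, with 1737 ± 24.1 TPM (SD, n = 2) in cDC1s and 34.4 ± 11.9 TPM (SD, n = 3) in cDC2s (log2 fold change 5.67, SE 0.254, adjusted p 8.29e-06). Each of these genes was high in both cDC1 libraries and low in all cDC2 libraries.

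The largest change of the 15 was that of Gpr141b, an orphan G protein-coupled receptor, with 346 and 417 TPM in cDC1s against 5.86, 1.29 and 0.92 TPM in cDC2s (log2 fold change 6.93, adjusted p 6.00e-05). Rab7b, a small GTPase of endosomal traffic, followed with 221 and 245 TPM in cDC1s against 3.8, 1.44 and 0.97 TPM in cDC2s (log2 fold change 6.36, adjusted p 1.85e-05). P2ry14, a receptor for UDP-sugars, was at 272 and 276 TPM in cDC1s against 4.25, 3.0 and 1.76 TPM in cDC2s (log2 fold change 6.15, adjusted p 6.68e-06). The scavenger receptor Cd36 (5.32), the lectin Cd207, which is langerin (6.0), the p200-family gene Ifi205 (5.96) and the signalling adaptor Gcsam (6.06) changed by similar amounts on the log2 scale. The others of the 15 were P3h2, Pdia5, Hepacam2, Ttc39a and Pianp, with log2 fold changes from 5.44 to 5.82. All 15 calls held.

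In the list of cDC1 identity genes 27 of 28 were called higher in cDC1s, with a median log2 fold change of 4.86 beside −0.17 over all genes. The list and the other lists below were chosen with results of these data known, so their counts are descriptions, to be set beside the 8.37% and 14.7% of all genes called higher in cDC1s and in cDC2s. Ppt1, a lysosomal thioesterase, was an abundant member, at 3039.8 and 2929 TPM in cDC1s against 148, 99.5 and 105 TPM in cDC2s. Naaa, a lysosomal lipid amidase, was at 1504 and 1405 TPM in cDC1s against 61.1, 42.5 and 38.3 TPM in cDC2s. Cd8a, the chain by which splenic cDC1s were first told apart, was at 489 and 460.1 TPM in cDC1s against 17.1, 14.9 and 7.65 TPM in cDC2s. In these genes both cDC1 libraries stood far above each cDC2 library. Itgae, the gene of CD103, was at 77.7 and 62.00 TPM in cDC1s against 1.42, 0.99 and 0.69 TPM in cDC2s. Cadm1, an adhesion molecule, had a log2 fold change of 4.83 (SE 0.191), and Btla, an inhibitory partner of HVEM, of 3.12 (SE 0.138). Wdfy4, which cDC1s need for cross-presentation, was called with a smaller change, 640.2 and 695 TPM in cDC1s against 306, 277 and 402 TPM in cDC2s (log2 fold change 1.04, adjusted p 0.00344), and lost its call without cDC1 library 1 (adjusted p 0.0173), cDC1 library 2 (0.0256) or cDC2 library 2 (0.0125). Itgb7, the partner chain of CD103, was the member that was not called, with 159 and 158 TPM in cDC1s against 172, 187 and 233 TPM in cDC2s (log2 fold change −0.3, adjusted p 0.161).

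The genes that led the cDC2 side included receptors of the SIRP and Clec4a families. Clec4a4, the DCIR2 lectin that marks splenic cDC2s (chromosome 6, 122990367 to 123024421), stood at 373, 386 and 320.2 TPM in cDC2s against 0.62 and 1.0 TPM in cDC1s (log2 fold change −7.64, SE 0.15, adjusted p 1.39e-06). Sirpb1a, of the SIRP-beta family of receptors related to CD172a (chromosome 3, 15371661 to 15426522), stood at 624, 639 and 533 TPM in cDC2s against 0.59 and 2.19 TPM in cDC1s (log2 fold change −8.05, SE 0.276, adjusted p 5.06e-06), the largest change of the 15. Both genes were low in the cDC1 libraries, at most 2.19 TPM. Sirpb1b was at 136, 146 and 131 TPM in cDC2s against 0.54 and 0.38 TPM in cDC1s. Sirpb1c was at 59.1, 60.4 and 55.6 TPM in cDC2s against 0 and 0.15 TPM in cDC1s. The predicted gene Gm9733, also among the 15, was at 156, 166 and 135 TPM in cDC2s against 0.52 and 0.38 TPM in cDC1s. These SIRP-beta genes are near-identical copies of each other, so 50-base reads may be shared among them and the split of the signal between copies is uncertain. The lectin Clec4a1 (−6.38) has close copies too.

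Other leading genes of cDC2s were not receptors. Dtx1, an E3 ligase and target of Notch signals, stood at 235, 253 and 404 TPM in cDC2s against 1.39 and 1.64 TPM in cDC1s (log2 fold change −6.85, adjusted p 5.06e-06). S100a4, a calcium-binding protein, was the most abundant of the 15, with 2558, 2803 and 1848 TPM in cDC2s against 48.97 and 58.9 TPM in cDC1s (log2 fold change −5.44, adjusted p 5.73e-06). Tgm2, a transglutaminase, was at 333, 383 and 502 TPM in cDC2s against 7.11 and 6.64 TPM in cDC1s (log2 fold change −5.67, adjusted p 4.93e-06). All 3 were high in each cDC2 library. Mmp12, the macrophage elastase, was at 239.9, 207 and 157 TPM in cDC2s against 0.85 and 4.16 TPM in cDC1s (log2 fold change −6.01, adjusted p 4.32e-05). Cyp4f37, a cytochrome P450 (−5.93), Pltp, which transfers phospholipids (−5.36), and the interferon-inducible genes Rtp4 (−5.92) and Oas2 (−5.64) completed the set with Sirpa. The calls of all 15 held, but Sirpa encodes a sorting antigen, so its call is no test. On the log2(TPM + 1) scale a change from below 1 TPM is understated.

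**Figure D2:**
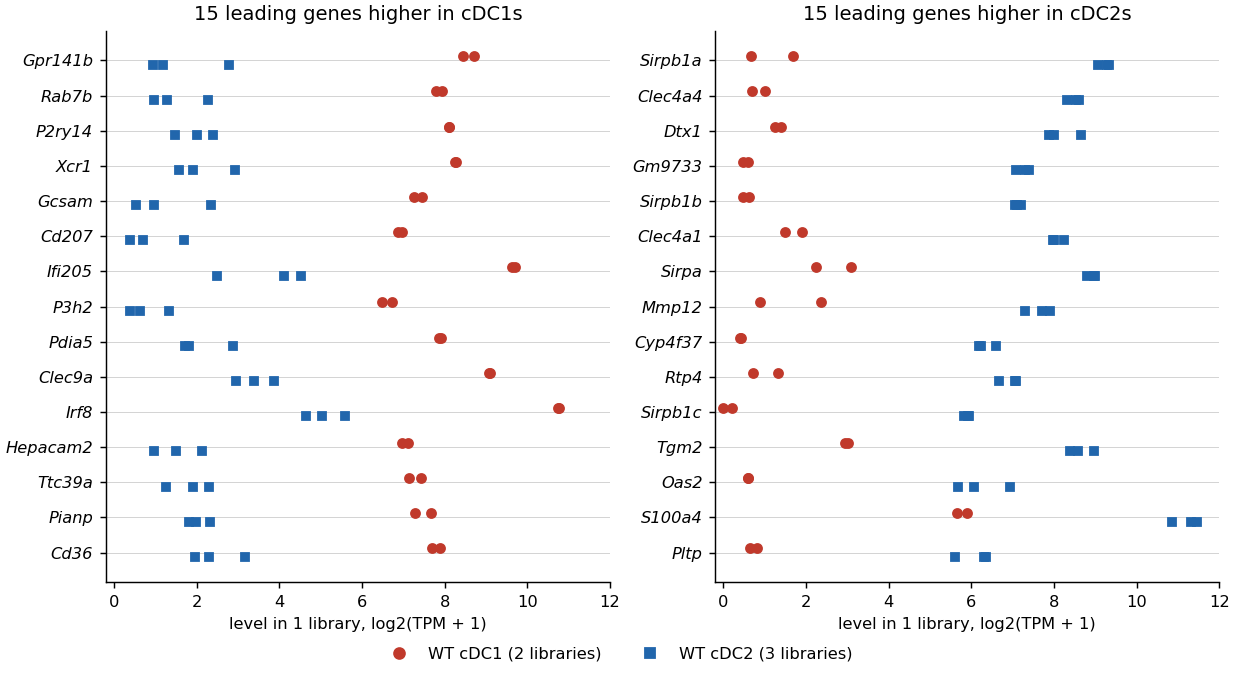
Level of the 15 leading genes higher in WT cDC1s (left) and of the 15 higher in WT cDC2s (right), log2(TPM + 1) on the horizontal axis, with 1 point per library (circles, 2 WT cDC1 libraries; squares, 3 WT cDC2 libraries). The genes were chosen among those without overlap, so circles and squares are apart in each by that choice. In 14 of the 15 genes on the left the highest cDC2 library is library 1.

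A trace of the leading cDC1 genes was measured in the cDC2 libraries. The 15 leading cDC1 genes stood in cDC2 libraries 1, 2 and 3 at a median of 2.22%, 1.09% and 0.646% of their mean in cDC1s, and library 1 was the highest for 14 of the 15. In cDC1 libraries 1 and 2 the 15 leading cDC2 genes, Sirpa among them, stood at a median of 0.467% and 0.643% of their mean in cDC2s. Both sets were chosen for the largest changes, so their low shares follow in part from that choice. Low expression and a few cells of the other subset in a sort cannot be told apart in these data.

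In the list of cDC2 identity genes 1 of 24 tested genes (4.17%) was called higher in cDC1s and 21 (87.5%) higher in cDC2s, and the median was −3.75. Cd4 was at 308, 261 and 366 TPM in cDC2s against 13.8 and 11.3 TPM in cDC1s. Itgam, the gene of CD11b, was at 80.9, 86.3 and 112 TPM in cDC2s against 1.46 and 1.83 TPM in cDC1s. Esam, an adhesion molecule that marks Notch2-dependent cDC2s, was at 45.4, 49.1 and 63.1 TPM in cDC2s against 13.5 and 9.06 TPM in cDC1s (log2 fold change −2.14, adjusted p 2.47e-04). Esam changed least of these and was present in cDC1s too. Cd209a, a DC-SIGN homologue, was at 345, 346 and 339.9 TPM in cDC2s against 13.7 and 30.1 TPM in cDC1s. Cd7, an immunoglobulin-family antigen, was at 762, 697 and 819 TPM in cDC2s against 34.03 and 51.98 TPM in cDC1s. Markers shared with macrophages were among the cDC2 genes. Adgre1, which encodes F4/80, was at 179.6, 187 and 179.8 TPM in cDC2s against 3.25 and 4.04 TPM in cDC1s (log2 fold change −5.31, adjusted p 2.24e-06). Csf1r, the receptor for M-CSF, was at 155, 154 and 161 TPM in cDC2s against 10.2 and 13.8 TPM in cDC1s (log2 fold change −3.62, adjusted p 6.21e-06). Clec12a, an inhibitory lectin often listed with cDC2s, ran the other way, with 183 and 219 TPM in cDC1s against 56.4, 62.3 and 37.3 TPM in cDC2s (log2 fold change 1.96, adjusted p 5.48e-04). Ccr2 and Lyz2 were not called, Lyz2 at 305 and 540.2 TPM in cDC1s against 617, 1048 and 798 TPM in cDC2s (adjusted p 0.035), and the macrophage markers that moved with Adgre1 and Csf1r are given at the end.

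Transcription factors were called in both directions: 4 of 50 tested genes (8%) were called higher in cDC1s and 15 (30%) higher in cDC2s, with a median of −0.26. Over all genes the shares were 8.37% and 14.7%, so the cDC1 share was near that of all genes, and median-of-ratios scaling gave 7 and 13 calls. On the cDC1 side, beside Irf8, stood Mycl, a MYC-family factor of cDC1 metabolism, at 361 and 311 TPM in cDC1s against 70.6, 70.2 and 69.7 TPM in cDC2s (log2 fold change 2.24, SE 0.119, adjusted p 1.61e-05). Id2, the inhibitor of E proteins that cDC1s require, was at 1877 and 1313 TPM in cDC1s against 557, 825 and 758 TPM in cDC2s (log2 fold change 1.16, adjusted p 0.00617) but lost its call without cDC1 library 1 (adjusted p 0.0457), cDC2 library 2 (0.0124) or cDC2 library 3 (0.0193). Rbpj, the DNA-binding partner of Notch, was at 128 and 143 TPM in cDC1s against 72.3, 59.03 and 72.5 TPM in cDC2s (log2 fold change 0.98, adjusted p 0.00158) and lost its call without cDC1 library 2 (adjusted p 0.0167). The other factors of the cDC1 program on this list were not called with TPM as deposited. Batf3 was at 226 and 176 TPM in cDC1s against 142, 175 and 157 TPM in cDC2s (log2 fold change 0.34, adjusted p 0.126). Bcl6, a repressor found in cDC1s, was at 114 and 143 TPM in cDC1s against 89.1, 72.6 and 80.7 TPM in cDC2s, with an adjusted p of 0.013. Its result depended on the scaling: it was not called under 2 of the 4 and called higher in cDC1s under the others. Nfil3, which acts before Id2 in cDC1 development, ranged from 5.23 to 69.98 TPM over the libraries (adjusted p 0.328).

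On the cDC2 side Irf4 was at 84.5, 53.97 and 56.9 TPM in cDC2s against 4.43 and 6.19 TPM in cDC1s (log2 fold change −3.37, SE 0.227, adjusted p 4.25e-05). Zeb2, a repressor that acts against the cDC1 fate, was at 29.9, 27.7 and 24.1 TPM in cDC2s against 0.70 and 1.61 TPM in cDC1s (log2 fold change −3.74, SE 0.211, adjusted p 2.00e-05). Both, like every gene called higher in cDC2s, were clear of the cDC1 libraries in every cDC2 library. Tbx21, which encodes T-bet, was at 19.3, 21.3 and 28.5 TPM in cDC2s against 0.90 and 0.59 TPM in cDC1s (log2 fold change −3.77, adjusted p 1.62e-05). Stat4, which signals from the IL-12 receptor, was at 43.2, 54.00 and 45.5 TPM in cDC2s against 2.4 and 2.68 TPM in cDC1s (log2 fold change −3.77, adjusted p 5.97e-06). Spib (−2.64) and Prdm1 (−1.5) were also called. Relb, an NF-kB subunit needed by cDC2s, was at 432, 496 and 463 TPM in cDC2s against 221 and 131 TPM in cDC1s (log2 fold change −1.44, adjusted p 0.00205), and its call was lost without cDC2 library 2 (adjusted p 0.0115) or cDC2 library 3 (0.0115). Runx3 was at 158, 131 and 221 TPM in cDC2s against 53.1 and 63.6 TPM in cDC1s (log2 fold change −1.5, adjusted p 0.00193), lost without cDC1 library 1 (adjusted p 0.0137). Tcf4, the E protein of pDCs, had a log2 fold change of −1.22 whose call was lost without cDC1 library 1 (adjusted p 0.0166), cDC2 library 2 (0.017) or cDC2 library 3 (0.0126) and under quantile normalization (0.0113). Relb, Runx3 and Tcf4 thus moved less than Irf4 and Zeb2, and each call was lost without a single library. Klf4 varied within both subsets, from 19.03 to 71.8 TPM in cDC1s and from 103 to 237 TPM in cDC2s, and was not called (adjusted p 0.0197). Factors known from both subsets were not called. Zbtb46 was at 107 and 107 TPM in cDC1s against 108, 139 and 137 TPM in cDC2s (adjusted p 0.219). Spi1, the gene of PU.1, was at 593 and 512 TPM in cDC1s against 677, 632 and 814 TPM in cDC2s (adjusted p 0.111). Zfp366, DC-SCRIPT, which the study lists among the factors that cDC1 differentiation requires, was not called with TPM as deposited either. Zfp366 was at 127 and 133 TPM in cDC1s against 80.9, 77.4 and 107 TPM in cDC2s (adjusted p 0.0303). Of the 19 calls 11 held.

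Pattern recognition receptors, which bind microbial nucleic acids, proteins and cell wall parts, were called in both directions. In this list 3 of 34 tested genes (8.82%) were called higher in cDC1s and 14 (41.2%) higher in cDC2s, the median was −0.57, and 16 of the 17 calls held. Over all genes the shares were 8.37% and 14.7%, so the cDC1 share was near that of all genes. The 3 genes higher in cDC1s were Toll-like receptors of endosomes. Tlr3, which binds double-stranded RNA, was at 206 and 177 TPM in cDC1s against 7.35, 6.38 and 6.21 TPM in cDC2s (log2 fold change 4.65, SE 0.138, adjusted p 3.61e-06). Tlr11, which binds profilin of apicomplexan parasites, was at 282 and 245 TPM in cDC1s against 24.9, 27.5 and 23.2 TPM in cDC2s (log2 fold change 3.33, adjusted p 5.97e-06). Tlr12, its partner in that role, was at 106 and 88.3 TPM in cDC1s against 3.59, 2.57 and 2.71 TPM in cDC2s (log2 fold change 4.64, adjusted p 5.73e-06). All 3 were high in both cDC1 libraries and low in every cDC2 library.

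Among the 14 receptors and adaptors higher in cDC2s were sensors at the surface, in endosomes and in the cytosol. Tlr5, the flagellin receptor, was at 36.2, 29.2 and 34.5 TPM in cDC2s against 0.26 and 0.78 TPM in cDC1s (log2 fold change −4.51, SE 0.192, adjusted p 7.09e-06). Tlr7, which binds single-stranded RNA, was at 80.7, 87.9 and 76.8 TPM in cDC2s against 3.9 and 5.28 TPM in cDC1s (log2 fold change −3.9, SE 0.151, adjusted p 5.97e-06). Tlr1, a partner of TLR2, was at 136, 175 and 143 TPM in cDC2s against 12.03 and 7.23 TPM in cDC1s (log2 fold change −3.87, adjusted p 1.94e-05). The cytosolic RNA sensor Ddx58, RIG-I, had the largest change of the list, from 1.03 and 0.85 TPM in cDC1s to 47.04, 54.5 and 60.4 TPM in cDC2s (log2 fold change −4.82, adjusted p 4.93e-06). Ticam2, an adaptor of TLR4, was at 53.2, 54.03 and 63.2 TPM in cDC2s against 2.99 and 3.28 TPM in cDC1s. Nlrc4 (−3.36), Nod1 (−2.59) and Nlrp3 (−1.37), which sense bacterial parts or damage in the cytosol, were called as well. The plot of receptors also holds Tlr6, Tlr8, Nod2, Ifih1 and Sting1, called higher in cDC2s, and Tlr2, Tlr4, Tlr9, Tlr13, Unc93b1, Cgas and Aim2, not called, which were chosen after their values were seen. The call of Nod2 was lost without cDC1 library 1 (adjusted p 0.027), cDC1 library 2 (0.0177) or cDC2 library 2 (0.0108).

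**Figure D3:**
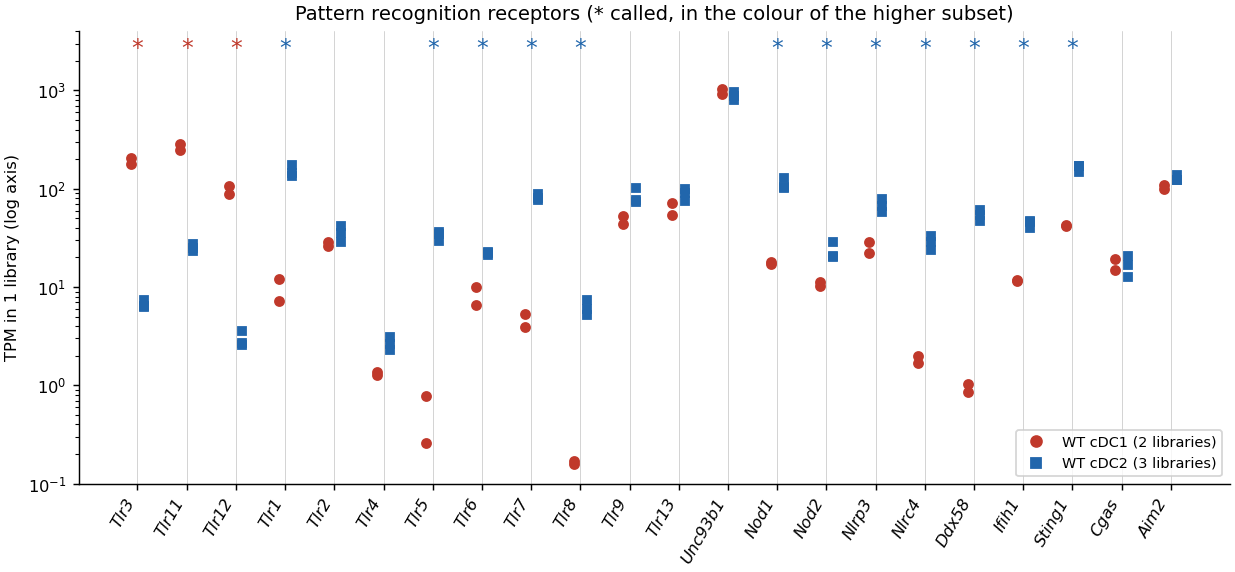
TPM (log axis) of pattern recognition receptors and partners in each of the 5 libraries (circles, WT cDC1; squares, WT cDC2), with a star over each called gene in the colour of the higher subset. Tlr3, Tlr11 and Tlr12 are higher in cDC1s, and 12 of the genes plotted are called higher in cDC2s.

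C-type lectin receptors bind sugars or dead cells, and all but 2 of the tested members were called: 7 of 23 tested genes (30.4%) were called higher in cDC1s and 14 (60.9%) higher in cDC2s, of which 18 held. On the cDC1 side, beside Clec9a and Cd207, Ly75, the DEC-205 receptor, was at 58.6 and 49.8 TPM in cDC1s against 5.76, 9.1 and 6.93 TPM in cDC2s (log2 fold change 2.76, adjusted p 5.18e-05). Clec4b2 was at 46.9 and 50.7 TPM in cDC1s against 1.56, 0.21 and 0.41 TPM in cDC2s (log2 fold change 4.93, adjusted p 3.26e-05), and Clec1a changed by 2.87. On the cDC2 side, beside Clec4a4 and Clec4a1, Clec4a3 was at 56.5, 82.2 and 69.7 TPM in cDC2s against 0.31 and 1.41 TPM in cDC1s (log2 fold change −5.29, adjusted p 1.54e-05), and Clec4a2 changed by −5.25. Members of the Clec4 cluster were thus found on both sides. Clec7a, dectin-1, which binds beta-glucan of fungi, was at 136, 99.4 and 59.04 TPM in cDC2s against 8.34 and 13.6 TPM in cDC1s (log2 fold change −3.01, adjusted p 5.98e-04). Clec4n, dectin-2, which binds fungal mannans, was at 39.2, 47.7 and 28.6 TPM in cDC2s against 2.69 and 3.51 TPM in cDC1s (log2 fold change −3.25, adjusted p 4.82e-05). Several of the Clec4 and Cd209 genes are close copies, so their single values are uncertain where reads could be shared.

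Fc receptors and complement genes leaned to cDC2s: 1 of 15 tested genes (6.67%) was called higher in cDC1s and 10 (66.7%) higher in cDC2s, with a median of −2.0. Fcer1g, the shared signalling chain, was at 1449, 1423 and 1314 TPM in cDC2s against 90.1 and 136 TPM in cDC1s (log2 fold change −3.64, SE 0.183, adjusted p 1.26e-05). Of the receptors for IgG, Fcgr3 (−2.69) and Fcgr4 (−2.23) were higher in cDC2s. Fcgr1 was low in all libraries, at most 4.39 TPM, and its call was lost without cDC1 library 1 (adjusted p 0.0171) or cDC2 library 3 (0.012). The inhibitory Fcgr2b was not called, at 127 and 137 TPM in cDC1s against 68.7, 148 and 90.1 TPM in cDC2s (adjusted p 0.273). Fcgrt, the neonatal Fc receptor that returns IgG from endosomes, was the 1 member higher in cDC1s, with 178 and 157 TPM in cDC1s against 65.1, 65.9 and 52.7 TPM in cDC2s (log2 fold change 1.44, SE 0.144, adjusted p 2.88e-04). The complement genes C1qa, C1qb and C1qc were higher in cDC2s by 3.0 to 3.09 on the log2 scale. C1qa stood at 139.7, 145 and 61.5 TPM in cDC2s against 10.3 and 13.3 TPM in cDC1s, lowest of the cDC2 libraries in library 3, as were other macrophage markers given at the end.

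Receptors that signal through inhibitory motifs, with their activating partners, were the list with the largest share on the cDC2 side after the identity genes: 1 of 28 tested genes (3.57%) was called higher in cDC1s and 22 (78.6%) higher in cDC2s, the median was −1.88 and 19 of the 23 calls held. Median-of-ratios and quantile scaling each gave 3 and 21 calls, and FPKM 2 and 21. Siglece, which binds sialic acid, was at 74.3, 68.3 and 105 TPM in cDC2s against 0.96 and 1.84 TPM in cDC1s (log2 fold change −5.12, SE 0.236, adjusted p 8.96e-06). Cd72, best known from B cells, was at 104, 120.2 and 131 TPM in cDC2s against 3.78 and 5.26 TPM in cDC1s. Cd22, a receptor for sialic acid that is also best known from B cells, was at 117, 113 and 169.9 TPM in cDC2s against 9.85 and 13.04 TPM in cDC1s. All 3 were low in both cDC1 libraries. Lair1, a collagen receptor, was at 79.6, 76.9 and 71.2 TPM in cDC2s against 4.18 and 5.58 TPM in cDC1s (log2 fold change −3.72, adjusted p 5.97e-06). Cd300a, a receptor for phospholipids, was at 162, 186 and 196 TPM in cDC2s against 38.2 and 42.6 TPM in cDC1s (log2 fold change −2.13, adjusted p 3.14e-05). Pirb, a receptor for MHC class I, was at 367, 498 and 514 TPM in cDC2s against 218 and 188 TPM in cDC1s (log2 fold change −1.16, adjusted p 0.00212), with the call lost without cDC1 library 2 (adjusted p 0.0181) or cDC2 library 2 (0.0111). Some called members do not inhibit: the SIRP-beta genes and Cd300ld (−4.88) pair with activating adaptors. Clec12a was the member higher in cDC1s.

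**Figure D4:**
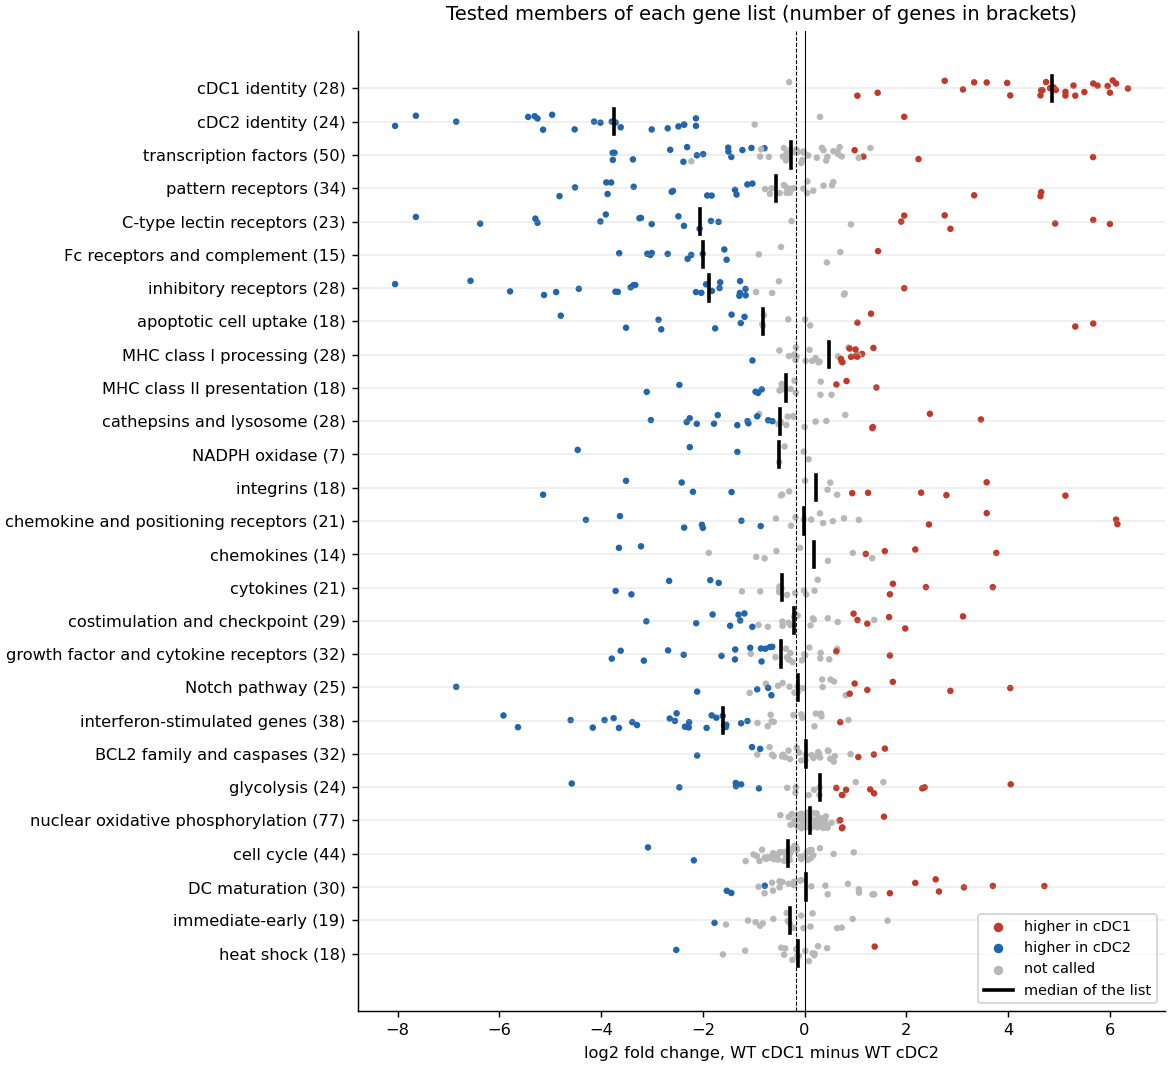
Log2 fold change (horizontal axis, positive where WT cDC1s are higher) of the tested members of 27 gene lists, 1 point per gene coloured by its call, with the median of each list as a black bar and the median of all genes, −0.17, as a dashed line. The identity lists sit at 4.86 and −3.75, and lectins, Fc receptors, inhibitory receptors and interferon-stimulated genes have medians below −1.5.

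Uptake of dying cells divided by receptor. In this list 4 of 18 tested genes (22.2%) were called higher in cDC1s and 8 (44.4%) higher in cDC2s, with a median of −0.82. Clec9a and Cd36 were cDC1 genes, as given above, and Scarb1, a scavenger receptor for lipoproteins, was at 141 and 140 TPM in cDC1s against 51.4, 49.96 and 69.2 TPM in cDC2s (log2 fold change 1.31, adjusted p 8.80e-04). Havcr2, which encodes TIM-3, a receptor for phosphatidylserine, was at 524 and 537 TPM in cDC1s against 237, 225 and 321 TPM in cDC2s (log2 fold change 1.04, adjusted p 0.00314), and lost its call without cDC1 library 1 (adjusted p 0.0195), cDC1 library 2 (0.0214) or cDC2 library 2 (0.0131). The receptors on the cDC2 side were of other families. Axl, a receptor tyrosine kinase that binds dying cells through GAS6, was at 44.2, 46.03 and 24.7 TPM in cDC2s against 4.08 and 4.69 TPM in cDC1s (log2 fold change −2.82, SE 0.268, adjusted p 2.25e-04). Cd300lf, a receptor for phosphatidylserine, was at 179, 192 and 251 TPM in cDC2s against 6.25 and 6.61 TPM in cDC1s (log2 fold change −4.79, adjusted p 5.06e-06). Lrp1, an endocytic receptor, was at 13.2, 14.3 and 16.9 TPM in cDC2s against 0.96 and 1.36 TPM in cDC1s (log2 fold change −2.87, adjusted p 2.54e-05). Mertk was at most 5.04 TPM, and its call was lost under 3 scalings and 4 of the 5 fits without a library, with adjusted p of 0.0105 to 0.0279.

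Genes of MHC class I processing were more often higher in cDC1s: 10 of 28 tested genes (35.7%) were called higher in cDC1s and 1 (3.57%) higher in cDC2s, and the median was 0.48, above 0 under all 4 scalings. Quantile normalization gave 12 and 2 calls. The changes were small beside those of the receptors, at most 1.35. Rab43, a GTPase of cross-presentation, was at 769.6 and 750.1 TPM in cDC1s against 283, 290.4 and 318 TPM in cDC2s (log2 fold change 1.35, SE 0.117, adjusted p 1.43e-04). Pdia3, a chaperone of peptide loading, was at 729 and 666 TPM in cDC1s against 307, 316 and 329.8 TPM in cDC2s (log2 fold change 1.13, SE 0.116, adjusted p 3.24e-04). These were the 2 calls that held. Tap1, of the peptide transporter, was at 434 and 348 TPM in cDC1s against 159, 214 and 213 TPM in cDC2s (log2 fold change 1.0, adjusted p 0.00416). Its partner Tap2 was at 272 and 241 TPM in cDC1s against 111, 117 and 142 TPM in cDC2s (log2 fold change 1.06, adjusted p 0.00138). The immunoproteasome gene Psmb9 was at 836 and 646 TPM in cDC1s against 326, 408 and 363 TPM in cDC2s (log2 fold change 1.01, adjusted p 0.00267). Without WT cDC1 library 1, the library with the higher value of each, Tap1 had an adjusted p of 0.0365, Tap2 of 0.0144 and Psmb9 of 0.0259. Tap1 also lost its call without cDC1 library 2 (adjusted p 0.01), cDC2 library 2 (0.0116) and cDC2 library 3 (0.0108), and Psmb9 without cDC2 library 3 (0.0110). Lnpep, the aminopeptidase IRAP, was the 1 member higher in cDC2s (log2 fold change −1.02, adjusted p 0.00262), with the call lost without cDC1 library 1 (adjusted p 0.0241) or cDC2 library 2 (0.0141). The class I heavy chains H2-K1 and H2-D1, B2m, Erap1 and Sec22b were not called with TPM as deposited, with adjusted p from 0.0486 to 0.542. Under quantile normalization B2m was called higher in cDC2s.

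Beside the class II chains of the gate, the genes that serve MHC class II ran in both directions. Cd74, the invariant chain, was the most abundant transcript of both, at 37762 and 34815 TPM in cDC1s against 30646, 23399 and 34295 TPM in cDC2s (log2 fold change 0.32, adjusted p 0.268). The transactivator Ciita was at 269.5 and 265 TPM in cDC1s against 271, 301 and 355 TPM in cDC2s (adjusted p 0.314). Of 18 genes tested beside the sorting antigens, 3 (16.7%) were higher in cDC1s and 5 (27.8%) in cDC2s. H2-DMb2, a chain of the peptide exchange factor H2-DM, was at 1019, 958 and 1073 TPM in cDC2s against 182 and 185 TPM in cDC1s (log2 fold change −2.46, SE 0.117, adjusted p 9.87e-06). Its close copy H2-DMb1 ran the other way, at 943 and 1017 TPM in cDC1s against 527, 537 and 595 TPM in cDC2s (log2 fold change 0.83, adjusted p 0.00193). H2-DMb1 lost its call without cDC1 library 1 (adjusted p 0.0161) or cDC1 library 2 (0.0253). H2-Oa, a chain of the H2-DO inhibitor, was at 914, 848 and 851 TPM in cDC2s against 439 and 453 TPM in cDC1s (log2 fold change −0.96, adjusted p 6.86e-04), with the call lost without cDC1 library 1 (adjusted p 0.0114). H2-Eb2, a class II chain outside the gate, was at 263, 347 and 290.3 TPM in cDC2s against 39.4 and 29.03 TPM in cDC1s (log2 fold change −3.1, adjusted p 2.11e-05). Cd1d1, which presents lipids to NKT cells, was at 173 and 146 TPM in cDC1s against 48.9, 66.2 and 63.1 TPM in cDC2s (log2 fold change 1.41, SE 0.166, adjusted p 6.34e-04). The H2-DMb copies are alike enough that reads shared between them could have been divided in estimation, so their single values are uncertain.

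Lysosomal genes ran in both directions: 4 of 28 tested genes (14.3%) were called higher in cDC1s and 12 (42.9%) higher in cDC2s, with a median of −0.49. Most of the cathepsins called were on the cDC2 side. Ctsd was at 142, 151 and 116 TPM in cDC2s against 24.8 and 28.2 TPM in cDC1s (log2 fold change −2.32, adjusted p 3.63e-05). Ctsa was at 387, 416 and 494 TPM in cDC2s against 95.1 and 83.5 TPM in cDC1s (log2 fold change −2.26, adjusted p 3.51e-05). Ctsc, which activates granule proteases, was at 167, 148 and 179.5 TPM in cDC2s against 32.1 and 42.9 TPM in cDC1s (log2 fold change −2.12, adjusted p 7.56e-05). These 3, like every gene called higher in cDC2s, were clear of the cDC1 libraries in every cDC2 library. Ctss, which cuts the invariant chain, was at 1382, 1524 and 1236 TPM in cDC2s against 654 and 609.7 TPM in cDC1s (log2 fold change −1.12, adjusted p 7.67e-04), and its call was lost without cDC1 library 2 (adjusted p 0.0102). Cst3, which encodes cystatin C, an inhibitor of cysteine proteases, was on the cDC1 side and was at rank 3 among their transcripts, with 18883 and 16908 TPM in cDC1s against 1799.6, 1761 and 1328 TPM in cDC2s (log2 fold change 3.47, SE 0.178, adjusted p 1.40e-05). Psap, the precursor of the saposins, was at 10161 and 8820.5 TPM in cDC1s against 1593, 1595 and 1983 TPM in cDC2s (log2 fold change 2.46, SE 0.16, adjusted p 3.66e-05). Npc2, a carrier of cholesterol, was at 229.9 and 217 TPM in cDC1s against 88.7, 93.3 and 80.8 TPM in cDC2s (log2 fold change 1.34, adjusted p 1.65e-04). Cst7, another cystatin, was on the cDC2 side (−3.02). Ctsb was not called (adjusted p 0.0711).

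The phagocyte NADPH oxidase makes reactive oxygen in phagosomes. Its membrane subunit Cybb was at 189, 185 and 217 TPM in cDC2s against 5.62 and 11.2 TPM in cDC1s (log2 fold change −4.46, SE 0.246, adjusted p 1.88e-05), and the GTPase Rac2, which takes part in its assembly, was higher in cDC2s too (−1.32). Both calls held. Cyba, Ncf1 and Ncf4 were not called, and Ncf4, for example, was at 219.9 and 199 TPM in cDC1s against 185, 204 and 251 TPM in cDC2s (adjusted p 0.944).

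Receptors that guide cells through the spleen were found on both sides. In this list 4 of 21 tested genes (19%) were called higher in cDC1s and 7 (33.3%) higher in cDC2s. Beside Xcr1 and P2ry14, cDC1s were higher in Cxcr3, a receptor for CXCL9 and CXCL10, with 73.9 and 64.5 TPM in cDC1s against 5.52, 4.67 and 4.42 TPM in cDC2s (log2 fold change 3.58, adjusted p 6.35e-06). Ccr9, a receptor for CCL25, was lower in level, with 17.6 and 18.8 TPM in cDC1s against 2.84, 2.44 and 2.31 TPM in cDC2s (log2 fold change 2.45, adjusted p 2.66e-05). The cDC2s were higher in Gpr183, EBI2, the oxysterol receptor that positions cDC2s in the bridging channels, with 149, 79.2 and 68.4 TPM in cDC2s against 3.79 and 11.1 TPM in cDC1s (log2 fold change −3.63, SE 0.446, adjusted p 7.85e-04). Ccr6, the receptor for CCL20, was at 39.5, 43.6 and 46.3 TPM in cDC2s against 1.66 and 0.88 TPM in cDC1s (log2 fold change −4.3, SE 0.181, adjusted p 6.87e-06). Cx3cr1 was at 14.8, 17.4 and 17.9 TPM in cDC2s against 1.26 and 4.18 TPM in cDC1s (log2 fold change −2.37, adjusted p 0.00134), and lost its call without cDC2 library 3 (adjusted p 0.0103). Of the 3, Ccr6 separated the subsets most. Ccr7, which leads DCs into T cell zones, was not called, at 694 and 417 TPM in cDC1s against 347, 298 and 163 TPM in cDC2s (log2 fold change 1.07, adjusted p 0.0466). S1pr1 was below the limit of 1 TPM, at most 0.82 TPM.

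Of 14 chemokines tested, 4 (28.6%) were higher in cDC1s and 2 (14.3%) in cDC2s, the latter near the 14.7% over all genes. Cxcl9, a ligand of CXCR3, was at 361 and 316 TPM in cDC1s against 21.7, 28.7 and 21.7 TPM in cDC2s (log2 fold change 3.77, SE 0.16, adjusted p 7.05e-06), so that ligand and receptor were both higher in cDC1s. Ccl22, a ligand of CCR4, was at 139.8 and 91.8 TPM in cDC1s against 21.9, 30.3 and 21.6 TPM in cDC2s (log2 fold change 2.18, SE 0.224, adjusted p 3.30e-04). Ccl9 was at 25.2, 36.3 and 32.3 TPM in cDC2s against 2.45 and 2.42 TPM in cDC1s (log2 fold change −3.22, adjusted p 1.82e-05). Ccl3 was at 509, 145 and 257 TPM in cDC2s against 9.49 and 42.4 TPM in cDC1s (log2 fold change −3.65, adjusted p 0.0051), highest in the cDC2 library that was high in immediate-early genes, and its call was lost without cDC1 library 1 (adjusted p 0.0158) or cDC2 library 3 (0.0254). Ccl5 and Cxcl10 were not called, with adjusted p of 0.101 and 0.0755, and Ccl17 was at most 2.87 TPM.

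Of 21 cytokine genes and related enzymes tested 4 (19%) were called higher in cDC1s and 5 (23.8%) higher in cDC2s, and 7 of the 9 calls held. The cDC1 side held genes of IL-12 and IL-15, which act on T and NK cells. Il12b, the p40 chain of IL-12, was at 69.8 and 101 TPM in cDC1s against 7.32, 5.34 and 4.26 TPM in cDC2s (log2 fold change 3.7, SE 0.237, adjusted p 3.49e-05), while Il12a, its p35 chain, stayed under 0.20 TPM in all libraries. Il15 was at 44.6 and 36.9 TPM in cDC1s against 9.34, 17.9 and 8.93 TPM in cDC2s (log2 fold change 1.74, adjusted p 0.00305). Its presenting chain Il15ra was at 63.9 and 31.9 TPM in cDC1s against 11.7, 15.8 and 13.2 TPM in cDC2s (log2 fold change 1.68, adjusted p 0.00337). The call of Il15 was lost without cDC1 library 1 (adjusted p 0.019) or cDC2 library 3 (0.0143), and that of Il15ra without cDC2 library 2 (adjusted p 0.0108) or cDC2 library 3 (0.0183). Ido1, which degrades tryptophan, was low but apart, at 6.48 and 5.97 TPM in cDC1s against 0.52, 0.52 and 0.14 TPM in cDC2s (log2 fold change 2.39, adjusted p 1.37e-04). On the cDC2 side, Ltb, the membrane partner of lymphotoxin, was at 477, 575 and 507 TPM in cDC2s against 42.6 and 34.9 TPM in cDC1s (log2 fold change −3.71, SE 0.143, adjusted p 5.97e-06). Il1rn, the IL-1 receptor antagonist, was at 9.59, 15.97 and 13.4 TPM in cDC2s against 0.17 and 0.44 TPM in cDC1s (log2 fold change −3.4, adjusted p 4.55e-05). Flt3l, the growth factor of DCs, was at 28.3, 32.3 and 43.1 TPM in cDC2s against 10.2 and 9.55 TPM in cDC1s (log2 fold change −1.69, adjusted p 4.96e-04). Vegfa (−2.66) and Osm (−1.85) were called too. Il1b, Tnf, Il18, Il27 and Il6 were not called, and Il1b ranged from 94.6 to 758 TPM over the 5 libraries.

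Costimulatory and checkpoint molecules were called in both directions: 6 of 29 tested genes (20.7%) were called higher in cDC1s and 8 (27.6%) higher in cDC2s. Cd86 was at 288 and 316 TPM in cDC1s against 98.8, 102 and 84.1 TPM in cDC2s (log2 fold change 1.66, SE 0.133, adjusted p 9.84e-05), whereas Cd80 and Cd40 were not called (adjusted p 0.122 and 0.45). Pvr, a ligand of CD226 and TIGIT, was at 31.5 and 24.7 TPM in cDC1s against 6.25, 6.79 and 5.96 TPM in cDC2s (log2 fold change 1.98, adjusted p 8.56e-05). The ligands of PD-1 were higher in cDC2s. Cd274, PD-L1, was at 159, 141 and 138 TPM in cDC2s against 43.5 and 38.5 TPM in cDC1s (log2 fold change −1.81, SE 0.127, adjusted p 5.18e-05). Pdcd1lg2, PD-L2, was at 20.8, 23.9 and 24.1 TPM in cDC2s against 2.24 and 1.35 TPM in cDC1s (log2 fold change −3.11, SE 0.179, adjusted p 2.16e-05). Cd5 (−2.13) and Ly9 (−1.46) were cDC2 genes as well. Icosl was at 271 and 177 TPM in cDC1s against 306, 434 and 521 TPM in cDC2s and was not called (adjusted p 0.0318).

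In the list of receptors for growth factors and cytokines 2 of 32 tested genes (6.25%) were called higher in cDC1s and 14 (43.8%) higher in cDC2s, beside 8.37% and 14.7% over all genes, with a median of −0.47. Median-of-ratios scaling gave 3 and 9 calls. Il2rg, the common gamma chain, was at 570.5, 569 and 631 TPM in cDC2s against 106 and 77.8 TPM in cDC1s (log2 fold change −2.68, SE 0.158, adjusted p 2.34e-05). Beside it and Csf1r, the decoy receptor Il1r2 (−3.79), Csf3r (−3.16) and Il27ra (−2.38) were called. Flt3, Csf2ra, Csf2rb, Ltbr and Il4ra were not called. Flt3 was at 464 and 442 TPM in cDC1s against 285, 317 and 374 TPM in cDC2s (log2 fold change 0.49, adjusted p 0.0351). Csf2ra, of the GM-CSF receptor, was at 662 and 528 TPM in cDC1s against 302, 330.2 and 544 TPM in cDC2s (log2 fold change 0.64, adjusted p 0.0902). Csf2rb, Ltbr and Il4ra had adjusted p of 0.251, 0.954 and 0.273. In this list 7 of the 16 calls held.

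Notch genes were called in both directions: 6 of 25 tested genes (24%) were called higher in cDC1s and 5 (20%) higher in cDC2s, beside 8.37% and 14.7% over all genes. The split depended on the scaling, with 9 and 3 calls under median-of-ratios, 9 and 4 under quantile normalization and 9 and 5 with FPKM. Notch4 was at 72.9 and 66.8 TPM in cDC1s against 2.98, 2.95 and 4.02 TPM in cDC2s (log2 fold change 4.04, SE 0.159, adjusted p 5.97e-06). The ligand Jag2 was at 11.3 and 13.8 TPM in cDC1s against 1.45, 0.60 and 0.61 TPM in cDC2s (log2 fold change 2.87, SE 0.237, adjusted p 1.15e-04). A receptor and a ligand were thus higher in cDC1s. Notch2, the receptor known for its role in cDC2s, was not called, at 50.4 and 64.2 TPM in cDC1s against 58.8, 53.5 and 77.1 TPM in cDC2s (log2 fold change −0.13, adjusted p 0.619). Among the deltex ligases, Dtx1 was a cDC2 gene, as given above, and Dtx4 a cDC1 gene, at 14.7 and 16.3 TPM in cDC1s against 3.84, 3.4 and 4.7 TPM in cDC2s (log2 fold change 1.74, adjusted p 2.24e-04). Maml3, a coactivator, was at 7.25, 5.18 and 7.52 TPM in cDC2s against 0.55 and 0.98 TPM in cDC1s (log2 fold change −2.11, adjusted p 3.00e-04), and Hes1, a common target, was not called (adjusted p 0.16). Integrins were divided too, with 6 of 18 (33.3%) higher in cDC1s and 5 (27.8%) in cDC2s. Itga8 was at 16.8 and 21.6 TPM in cDC1s against 0.78, 0.77 and 0.50 TPM in cDC2s (log2 fold change 3.58, adjusted p 1.38e-05), and Itga3 (2.79) and Itga1 (2.29) were called on the same side. Itgb3 was at 11.9, 14.7 and 19.97 TPM in cDC2s against 0.29 and 0.57 TPM in cDC1s (log2 fold change −3.51, adjusted p 3.90e-05), and Itgad (−2.42) and Itga9 (−2.19) were cDC2 genes. Itgal and Itgb2, the chains of LFA-1, were not called at the threshold (adjusted p 0.0215 and 0.0375).

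Interferon-stimulated genes, which type I interferon induces through the factor ISGF3, were higher in cDC2s as a group. In this list 1 of 38 tested genes (2.63%) was called higher in cDC1s and 24 (63.2%) higher in cDC2s, and the median log2 fold change was −1.6, between −1.60 and −1.43 under the 4 scalings. Of these 25 calls 21 held. Ifit3 was at 61.04, 94.7 and 87.3 TPM in cDC2s against 2.52 and 2.14 TPM in cDC1s (log2 fold change −4.6, SE 0.203, adjusted p 7.88e-06). Oasl2 was at 57.96, 75.3 and 101 TPM in cDC2s against 3.62 and 3.01 TPM in cDC1s (log2 fold change −4.16, SE 0.23, adjusted p 1.87e-05). Oas1a, which senses double-stranded RNA with the other OAS enzymes, was at 90.4, 135 and 143 TPM in cDC2s against 8.82 and 5.41 TPM in cDC1s (log2 fold change −3.93, SE 0.253, adjusted p 3.53e-05). In each of these every cDC2 library stood far above both cDC1 libraries, and library 1 was the lowest of the cDC2 libraries. Rtp4 was at 101, 133 and 135 TPM in cDC2s against 0.65 and 1.5 TPM in cDC1s. Oas2 was at 50.4, 66.3 and 121 TPM in cDC2s against 0.51 and 0.51 TPM in cDC1s. Ifit1, which binds foreign RNA, was at 22.7, 38.5 and 26.8 TPM in cDC2s against 1.61 and 0.85 TPM in cDC1s. Isg15, a ubiquitin-like protein, changed less. Isg15 was at 74.3, 104 and 85.96 TPM in cDC2s against 31.3 and 25.9 TPM in cDC1s (log2 fold change −1.58, adjusted p 4.27e-04). The list was not uniform: Irf7, a factor of the pathway, was at 178 and 137 TPM in cDC1s against 112, 182 and 206 TPM in cDC2s (log2 fold change −0.04, adjusted p 0.912), and Trim30a was higher in cDC1s (log2 fold change 0.7, adjusted p 0.00348), with the call lost without cDC1 library 1 (adjusted p 0.0374), cDC1 library 2 (0.0282) or cDC2 library 1 (0.012). Summed levels of the 38 listed genes were 1468 and 1159 TPM in cDC1s and 2101, 3077 and 2857 TPM in cDC2s. Of the interferons on the lists, Ifnb1 and Ifnl2 were listed at 0 in all 5 libraries. Some of these genes, such as Ifit3 and the Oas1 genes, have near-identical copies, so the value of a single copy is uncertain.

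The promoters of 4 of these genes and of Ifi205, an interferon-inducible gene on the cDC1 side, hold the core of the interferon-stimulated response element (ISRE) and are shown for where it sits. Each line gives the 250 bases before the RefSeq gene start (build GRCm38.p6), 5′ to 3′ on the strand of the gene, with each match to the ISRE core (GAAA, any 2 bases, GAAA), on either strand, in capitals.
Isg15, chr4:156200819-156201068, minus strand: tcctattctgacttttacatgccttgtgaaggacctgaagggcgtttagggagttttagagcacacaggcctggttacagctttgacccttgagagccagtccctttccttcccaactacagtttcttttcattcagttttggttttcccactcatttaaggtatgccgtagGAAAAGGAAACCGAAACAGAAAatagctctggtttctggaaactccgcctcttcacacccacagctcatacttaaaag
Ifit1, chr19:34640639-34640888, plus strand: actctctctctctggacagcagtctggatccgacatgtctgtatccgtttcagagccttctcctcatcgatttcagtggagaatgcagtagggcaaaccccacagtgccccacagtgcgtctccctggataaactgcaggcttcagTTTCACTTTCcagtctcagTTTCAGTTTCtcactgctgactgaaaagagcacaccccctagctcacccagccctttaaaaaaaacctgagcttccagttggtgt
Ifit3, chr19:34583279-34583528, plus strand: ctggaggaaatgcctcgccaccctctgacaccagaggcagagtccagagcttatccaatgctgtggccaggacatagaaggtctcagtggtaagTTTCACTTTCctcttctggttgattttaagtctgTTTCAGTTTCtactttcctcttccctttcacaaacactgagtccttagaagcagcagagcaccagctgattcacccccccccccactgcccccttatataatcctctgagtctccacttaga
Oas1a, chr5:120907526-120907775, minus strand: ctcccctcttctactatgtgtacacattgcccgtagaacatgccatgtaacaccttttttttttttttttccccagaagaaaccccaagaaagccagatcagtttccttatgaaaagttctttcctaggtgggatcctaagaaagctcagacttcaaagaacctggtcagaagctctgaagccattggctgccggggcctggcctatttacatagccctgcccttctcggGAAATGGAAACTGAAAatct
Ifi205, chr1:174031756-174032005, minus strand: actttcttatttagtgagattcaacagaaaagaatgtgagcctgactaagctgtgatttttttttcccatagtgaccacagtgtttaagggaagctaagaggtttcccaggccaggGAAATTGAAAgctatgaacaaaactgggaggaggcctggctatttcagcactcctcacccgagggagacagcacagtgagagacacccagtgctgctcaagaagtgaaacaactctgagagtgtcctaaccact

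Isg15 held 3 overlapping matches, 78 to 57 bases before its start, Oas1a 2 overlapping matches, Ifit1 and Ifit3 2 separate ones each, and Ifi205 1. Of 38 interferon-stimulated genes tested 30 had a promoter in the table, and 19 of the 30 (63.3%) held a match, beside 936 of all 27025 genes with a promoter (3.46%) and 978 of all 32851 promoters of this length (2.98%). The share was 12 of 18 in interferon-stimulated genes higher in cDC2s (66.7%) and 6 of 11 in those not called (54.5%). Over all called genes, 78 of 1329 genes higher in cDC2s with a promoter held a match (5.87%), 24 of 766 genes higher in cDC1s (3.13%) and 223 of 7181 genes not called (3.11%). The core GGAA, any 2 bases, GAAA, to which PU.1 binds with IRF4 or IRF8, was held by 48 of 1329 (3.61%), 18 of 766 (2.35%) and 163 of 7181 (2.27%), and differs from the ISRE core at its second base, so no stretch of 10 bases matches both on the same strand. The AP-1 core TGANTCA was held by 81 of 1329 (6.09%), 55 of 766 (7.18%) and 363 of 7181 (5.06%). A match is a description of the letters and not a bound site.

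In the list of BCL2 family members and caspases 3 of 32 tested genes (9.38%) were called higher in cDC1s and 3 (9.38%) higher in cDC2s, beside 8.37% and 14.7% over all genes. Median-of-ratios scaling gave 6 and 2 calls and quantile normalization 5 and 2. Bcl2l11, which encodes the death-promoting protein BIM, was at 50.7 and 37.6 TPM in cDC1s against 12.4, 13.9 and 15.7 TPM in cDC2s (log2 fold change 1.58, SE 0.172, adjusted p 4.42e-04). Bid, another such protein, was at 70.3 and 63.6 TPM in cDC1s against 27.9, 32.1 and 35.2 TPM in cDC2s (log2 fold change 1.06, adjusted p 0.00112), its call lost without cDC1 library 1 (adjusted p 0.0127). Casp6 was higher in cDC1s (1.36). Casp1, the inflammasome caspase, was higher in cDC2s, with 102, 124 and 96.8 TPM in cDC2s against 22.3 and 25.8 TPM in cDC1s (log2 fold change −2.11, SE 0.15, adjusted p 5.57e-05). The survival genes Bcl2, Bcl2l1 and Mcl1 and the effectors Bax and Bak1 were not called. Mcl1, for example, was at 462 and 441 TPM in cDC1s against 651, 554 and 492 TPM in cDC2s (adjusted p 0.134). Trim33 was at 15.5 and 18.2 TPM in cDC1s against 20.6, 18.2 and 17.2 TPM in cDC2s (log2 fold change −0.14, adjusted p 0.463), and its relatives Trim24 and Trim28 were not called either.

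Glycolysis genes were called in both directions, with 8 of 24 (33.3%) higher in cDC1s and 6 (25%) in cDC2s, beside 8.37% and 14.7% over all genes. Hexokinase 3 (Hk3) was at 136 and 94.2 TPM in cDC1s against 6.05, 7.3 and 4.58 TPM in cDC2s (log2 fold change 4.05, SE 0.223, adjusted p 1.85e-05). Pfkp, a phosphofructokinase, was at 84.9 and 81.9 TPM in cDC1s against 14.4, 15.7 and 17.9 TPM in cDC2s (log2 fold change 2.31, SE 0.134, adjusted p 2.22e-05). Pgk1 was at 264 and 249 TPM in cDC1s against 103, 105 and 88.6 TPM in cDC2s (log2 fold change 1.37, adjusted p 1.99e-04). These enzymes were higher in both cDC1 libraries, whereas others ran the opposite way. The glucose transporter Slc2a3 was at 91.9, 81.2 and 94.9 TPM in cDC2s against 1.93 and 3.86 TPM in cDC1s (log2 fold change −4.58, SE 0.219, adjusted p 1.03e-05). Eno1, an enolase, was at 335, 358 and 403 TPM in cDC2s against 159 and 147 TPM in cDC1s (log2 fold change −1.25, adjusted p 3.35e-04), and Ldhb changed by −2.46. Of 77 nuclear genes of oxidative phosphorylation 4 were called, all higher in cDC1s (5.19%, beside 8.37% over all genes), and median-of-ratios scaling gave 7. Atpif1, the inhibitor of ATP synthase, had the largest change, at 347 and 400.2 TPM in cDC1s against 134, 142 and 104 TPM in cDC2s (log2 fold change 1.56, adjusted p 3.93e-04). Of 44 cell cycle genes only Ccnd1 and Ccnd2 were called with TPM as deposited, and 1 more was called higher in cDC1s under median-of-ratios and under quantile normalization. Ccnd1, cyclin D1, was at 587, 669 and 634 TPM in cDC2s against 138 and 139 TPM in cDC1s (log2 fold change −2.18, SE 0.117, adjusted p 1.70e-05). Ccnd2, cyclin D2, was at 33.3, 55.4 and 52.6 TPM in cDC2s against 5.53 and 3.74 TPM in cDC1s (log2 fold change −3.08, SE 0.251, adjusted p 1.08e-04). Mki67 and Top2a, which mark dividing cells, were not called, with Mki67 at 28.4 and 49.1 TPM in cDC1s against 60.1, 65.1 and 87.6 TPM in cDC2s (adjusted p 0.0304).

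Genes of DC maturation were called in both directions: 7 of 30 tested genes (23.3%) were called higher in cDC1s and 3 (10%) higher in cDC2s. Il12b and Ccl22 were given above. In each of the next 3 genes cDC1 library 1 was the highest of all libraries. Serpinb6b was at 346 and 253 TPM in cDC1s against 29.8, 41.7 and 28.4 TPM in cDC2s (log2 fold change 3.13, adjusted p 4.22e-05). Laptm4b was at 105 and 69.5 TPM in cDC1s against 2.7, 2.2 and 1.99 TPM in cDC2s (log2 fold change 4.72, adjusted p 7.34e-06). Apol7c, known for its role in cross-presentation, was at 2798 and 1969 TPM in cDC1s against 306, 574 and 344 TPM in cDC2s (log2 fold change 2.58, adjusted p 4.89e-04). Within cDC1s library 1 was higher than library 2 in Ccr7 and in Fscn1, an actin bundler of mature DCs, the latter at 501 and 194 TPM in cDC1s against 185, 298 and 236 TPM in cDC2s (log2 fold change 0.41, adjusted p 0.435). Of 19 immediate-early genes tested 1 was called, Jun, at 1608, 1030 and 1466 TPM in cDC2s against 388 and 399 TPM in cDC1s (log2 fold change −1.77, SE 0.199, adjusted p 5.14e-04). Egr1 was at 2928, 1014 and 906 TPM in cDC2s against 542 and 418 TPM in cDC1s (adjusted p 0.0384). Of 18 heat-shock genes 1 was called higher in each subset, neither of which held, and Hspa1b was highest in cDC2 library 3, at 129.8, 43.2 and 1193 TPM in cDC2s against 36.1 and 105 TPM in cDC1s.

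Markers of other cells were examined because a sort can hold them. Of 22 monocyte and macrophage markers 18 were tested, 11 were called higher in cDC2s and 6 of these held, and their summed level was 1744 and 2113 TPM in cDC1s and 3114, 3859.5 and 2846 TPM in cDC2s. Adgre1 and Csf1r were even over the cDC2 libraries, as given above, whereas C1qa, Marco, Cd163, Spic and Hmox1 were lower in cDC2 library 3 than in the other cDC2 libraries. Marco, a scavenger receptor of marginal zone macrophages, was at 11.3, 14.8 and 1.25 TPM in cDC2s against 1.04 and 2.78 TPM in cDC1s. Vcan was at most 0.08 TPM and Ms4a3 at most 0.12 TPM in any library. The part of such cells in the difference was not tested. Of 11 B cell markers 7 were tested and 3 were higher in cDC2s, among them Cd22 and Cd79b (35.6, 35.6 and 29.1 TPM in cDC2s against 1.66 and 4.58 TPM in cDC1s), while Pax5 was at most 0.34 TPM in any library. Of 4 T cell markers tested 2 were called higher in cDC2s, Cd5, which held, and Thy1, which did not. Of 6 neutrophil markers 1 was called higher in cDC2s, Csf3r, which held. Cd5 and Csf3r were also counted above, among checkpoint molecules and cytokine receptors. The log2 fold changes of both lists were all below 0, down to −2.13 (Cd5) and −3.16 (Csf3r). Each of the other 3 scalings called 1 T cell marker. T cell markers summed to 15.6 and 10.8 TPM in cDC1s and 39.6, 46.8 and 48.4 TPM in cDC2s, with Cd3e at most 1.11 TPM, and the neutrophil marker Ly6g was listed at 0 in all 5 libraries. Of 7 erythroid genes tested by limma 0 were called, and 0 had an unadjusted p under 0.05, with Hbb-bs at 1022 and 126 TPM in cDC1s against 425, 3712 and 667 TPM in cDC2s. Of 12 pDC markers 3 were called higher in each subset, with 2 higher in cDC2s under median-of-ratios and 1 under quantile normalization, and of 3 NK cell and 3 platelet markers 0 were called by limma, with 1 NK cell marker and 1 platelet marker at an unadjusted p under 0.05. Without cDC2 library 2, the highest in erythroid genes, 666 genes were called higher in cDC1s and 1063 in cDC2s, and without cDC2 library 1, the highest in immediate-early genes, 792 and 1507.

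**Figure D5:**
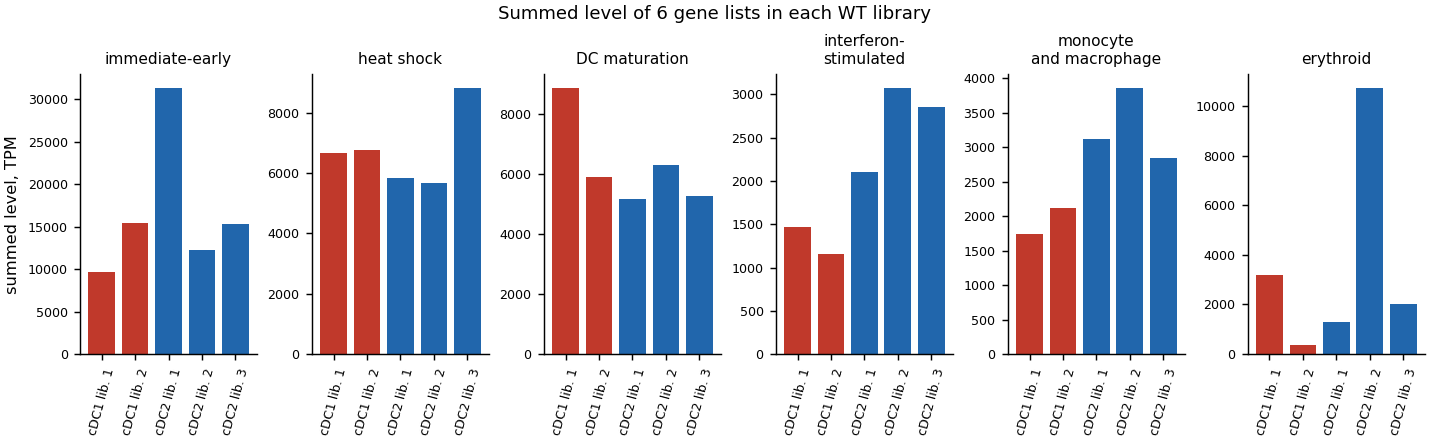
Summed level (TPM, with an axis of its own in each panel, from 0) of 6 gene lists in each of the 5 libraries, red for WT cDC1 and blue for WT cDC2. Immediate-early genes are highest in cDC2 library 1 and erythroid genes in cDC2 library 2, while interferon-stimulated genes are higher in all 3 cDC2 libraries than in both cDC1 libraries.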

How the data were processed

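RNA was extracted with TRIzol from sorted splenic cDCs and sequenced as single-end 50-base reads on a BGISEQ-500. Per the study's methods, the authors filtered reads with SOAPnuke, aligned them to transcripts with Bowtie2 (2.2.5) and estimated abundance with RSEM (1.2.12), and HISAT2 (2.0.4) was used with mm10. The authors deposited gene-level TPM values, and FPKM values, for the same libraries. They used DESeq2 on counts, which does not suit TPM, so limma (3.58.1, R 4.3.3) with a mean-variance trend was fitted to log2(TPM + 1) of the 5 WT cDC libraries, with 3 residual degrees of freedom and Benjamini-Hochberg adjustment over 11467 genes with a mean of at least 1 TPM. Fold changes of low genes are understated on this scale. A call needed an adjusted p no higher than 0.01 and a change of 0.5 or more on the log2 scale in either direction. An exact permutation test of 2 against 3 libraries cannot go below p = 0.1. Each library was collected from several mice, so the p-values measure the spread between these pools.

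The comparison, the gene lists and their members were chosen with earlier results of these data known. Named genes are the key members of each list, up to 6 further called members per list and direction with the largest changes, and the 15 leading genes in each direction, by absolute log2 fold change among called genes without overlap and with a mean of at least 10 TPM in the higher subset. The sorting antigens were described by their levels but stayed in the fit. Of these 7 genes 1 was called higher in cDC1s and 2 higher in cDC2s. These calls are counted in the totals and are no test, because the cells were chosen on these proteins. Depth was estimated from the steps between low FPKM values, and a floor of 3 reads covers counting error only, since the reads carry no molecular identifiers. Gene positions and promoters came from RefSeq (GRCm38.p6), which named 17667 of 17721 listed genes. The limma steps were tested on simulated data. Alternatives were FPKM, median-of-ratios and quantile scaling, other filters, pseudocount and thresholds, no trend, spread shared with the Trim33-deficient cDC libraries, a replicate block and leaving out each library.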

Additional observations from a re-analysis of the deposited data

How the results depend on the processing

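The numbers of genes called moved by less than 1.5 times, in total and in each direction, under FPKM and the other scalings (values in the report), without a trend (2590 calls), with a pseudocount of 0.1 (2626), with a mean of at least 5 TPM (2172), without a filter (2078), with a log2 fold change of at least 1 (1849) and with the spread shared over 10 cDC libraries (3659), apart from the exceptions that follow. Raising the limit on the adjusted p to 0.05 and dropping that on the change gave 4484 calls, 1513 higher in cDC1s and 2971 higher in cDC2s. The replicate block gave 946 calls, 373 higher in cDC1s and 573 in cDC2s, with WT cDC2 library 3 unpaired. The numbers do not pair the libraries by any label. Deviations from the subset means of libraries with the same number correlated at −0.524 and −0.386 across genes. With 2 cDC1 libraries their deviations mirror each other. The correlation was thus 0.524 for cDC1 library 2 with cDC2 library 1, and 0.386 for cDC1 library 1 with cDC2 library 2. Whether libraries with different numbers share a pool or day was not tested. Leaving out 1 library gave 1482 to 2299 calls, 539 to 908 higher in cDC1s and 943 to 1507 in cDC2s. Where this left 1 cDC1 library, it was assumed to vary like the cDC2 libraries. The cause of these moves was not tested, beyond fewer samples in the latter fits. No direction was reversed. Of 232 called among 313 named genes, 69 lost the call under the block, 47 without WT cDC1 library 1 and 34 without WT cDC1 library 2. Depth limits genes near 1 TPM, and 2 against 3 pooled samples limit all estimates of spread.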
